A study of Homo sapiens with 5 samples.

Results

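Neurexins, neuroligins and other synaptic adhesion molecules are membrane proteins that reach across the synaptic cleft and join the axon terminal to the cell that receives it. This report follows 9 of them, NRXN2, NRXN3, NLGN1, NLGN2, CNTNAP2, LRRTM2, IL1RAPL1, IL1RAPL2 and CADM2, through human brain organoids before and after grafting. The genes were chosen by name as synaptic adhesion genes, with earlier results of these data known, and all 9 were among the 32732 genes listed in every human-reference matrix. All 9 passed the filter on low counts in each comparison given here.

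The data are 5 single-cell RNA libraries, all from organoids made with H9, a line of human embryonic stem cells (genotype label WT). D0 held organoids at day 42 of culture, never transplanted. The other 4 held organoids grafted at day 42 into the hippocampus (HIP) or the prefrontal cortex (PFC) of immunodeficient SCID mice and recovered 2 or 4 months post-transplantation (MPT): HIP_2MPT, PFC_2MPT, HIP_4MPT and PFC_4MPT. Each condition was 1 library. The study's methods give all organoids used for single-cell sequencing, not the grafts alone, as made from a derivative of H9 that carries ChR2-EYFP. Graft tissue was dissected by its EYFP fluorescence from several mice per library. HIP and PFC of the same stage served as its 2 libraries in the tests below, so a stage effect was read against the spread between sites, and the lone D0 library was taken to vary as much as a graft does.

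After filtering, 34390 human cells remained, 4885 in D0 and 5952 to 8363 in each graft. D0 was far deeper, with a median of 9847 unique molecular identifiers (UMIs, 1 per captured RNA molecule) per cell against 1253 to 2759 in the grafts. Cells in PFC_4MPT had the highest median mitochondrial share, 7.31%, against 2.35% to 3.77% elsewhere, and any pair of libraries shared 6 to 20 cell barcodes. D0 also differed from the grafts in the dissociation enzyme (TrypLE against Trypsin-EDTA), in the counting software named in the file headers (3.1.0 against 5.0.0) and in the annotation, which listed fewer genes for D0. Whether reads in introns were counted was not stated for either. The grafted cells were also 2 or 4 months older than those of D0. All these differences, age included, coincide with transplantation, and their effects cannot be told apart from it.

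In the textbook account, neurexins sit on the presynaptic membrane and bind neuroligins and leucine-rich repeat proteins such as LRRTM2 on the postsynaptic side. NLGN1 is known mainly from excitatory synapses and NLGN2 from inhibitory ones. CNTNAP2, a distant relative of the neurexins, clusters potassium channels along the axon with contactin partners. IL1RAPL1 and its paralogue IL1RAPL2 resemble interleukin-1 receptors and organize synapses by binding presynaptic receptor phosphatases, and CADM2 belongs to the SynCAM family of immunoglobulin adhesion molecules that also act between axons and glia. Developing neurons transcribe many of these genes before synapses mature.

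The members fell into 3 shorter and 6 very long genes (GENCODE v44, build hg38). NRXN2 covers 117 kb on the minus strand of chromosome 11, chr11:64606174-64723197. NLGN2 covers 14.99 kb on the plus strand, chr17:7404874-7419860. LRRTM2 covers 6.45 kb on the minus strand, chr5:138868921-138875368, inside CTNNA1, which is transcribed from the other strand, and 94.6% of its length is exonic. For NLGN2 the exonic share was 38.1% and for NRXN2 it was 11.97%.

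The 6 long members are almost entirely intron. NLGN1 (chr3:173396284-174294372, plus strand) covers 898 kb, of which 1.99% is exonic. CADM2 (chr3:84958989-86074429, plus strand) covers 1115 kb and is 0.895% exonic. NRXN3 (chr14:78170373-79868291, plus strand) covers 1698 kb and is 0.915% exonic. CNTNAP2 (chr7:146116002-148420998, plus strand) is the longest, with 2305 kb and 0.711% exonic sequence. Both receptor-like genes lie on the X chromosome on the plus strand, IL1RAPL1 at chrX:28587446-29956718 with 1369 kb and IL1RAPL2 at chrX:104566199-105767829 with 1202 kb, and 0.264% and 0.271% of their lengths are exonic. No other protein-coding gene on the same strand overlapped any member, and IL1RAPL2 overlaps TEX13A on the other strand. In the sense direction, introns of these 6 genes each held at least 70 runs of at least 12 A bases, where an oligo-dT primer could anneal, and their exons held 1 or none. Introns of NRXN2 held 7 such runs and those of NLGN2 and LRRTM2 held 0. These counts were not scaled to intron length or set against other genes.

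Promoter windows from RefSeq (GRCh38.p14, 250 bases before to 50 after a transcription start) were on hand for 7 of the 9 members, 10 windows in all. Shown are LRRTM2, the shortest and most exonic member, and the first and last of the 3 NRXN3 windows, because neurexin genes start long (alpha) transcripts upstream and short (beta) transcripts from an internal promoter, and UMIs were counted per gene, so the start that was used was not measured. LRRTM2 is at chr5:138875286-138875585 on the minus strand, and the NRXN3 windows are at chr14:78170123-78170422 and chr14:79279130-79279429 on the plus strand. Capitals mark the letters TGACGTCA (cyclic AMP response element, CRE), TATAAA (the TATA box), CAGCTG (E-box) or GGGCGG (GC box) on either strand.
LRRTM2: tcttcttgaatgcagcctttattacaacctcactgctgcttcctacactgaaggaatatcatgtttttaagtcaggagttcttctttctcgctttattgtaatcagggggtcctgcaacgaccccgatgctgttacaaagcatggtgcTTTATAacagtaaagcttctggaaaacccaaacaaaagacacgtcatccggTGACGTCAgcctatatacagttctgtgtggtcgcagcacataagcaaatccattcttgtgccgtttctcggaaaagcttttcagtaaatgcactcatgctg
NRXN3 first window: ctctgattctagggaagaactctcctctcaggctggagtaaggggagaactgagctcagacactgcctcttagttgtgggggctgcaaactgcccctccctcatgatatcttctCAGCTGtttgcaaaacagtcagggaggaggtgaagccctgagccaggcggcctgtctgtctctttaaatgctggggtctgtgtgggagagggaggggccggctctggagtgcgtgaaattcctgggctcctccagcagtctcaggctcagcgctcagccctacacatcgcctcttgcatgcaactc
NRXN3 last window: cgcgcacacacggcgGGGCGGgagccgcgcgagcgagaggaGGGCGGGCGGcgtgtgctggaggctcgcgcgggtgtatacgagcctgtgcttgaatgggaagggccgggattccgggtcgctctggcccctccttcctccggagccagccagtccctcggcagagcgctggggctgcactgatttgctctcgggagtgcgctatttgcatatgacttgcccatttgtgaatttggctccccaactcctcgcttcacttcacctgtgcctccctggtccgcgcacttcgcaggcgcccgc

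The LRRTM2 window had a GC content of 43.3% and held a CRE 51 bases before the start and a TATA box in reverse orientation 102 bases before it. CRE letters were found in 1.85% of the 35116 RefSeq windows, TATA letters in 11.53%, E-box letters in 17.9% and GC-box letters in 45.0%. In NRXN3, the first window held 1 E-box and 5 CpG dinucleotides at a GC content of 57.0%. Its last window held 3 GC boxes, a pair of which overlap, and 30 CpG dinucleotides at 67.0% GC. The median GC content of all windows was 58.7%. These matches describe letters only.

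Levels below are in CPM, the UMIs of a gene scaled to a total of 1000000 UMIs over the human cells of a library, with 95% Poisson intervals that cover counting error only. In sums over all cells, fewer cells of a type and less RNA per cell cannot be told apart. Changes are log2 fold changes ± SE from edgeR's quasi-likelihood test on library sums, with Benjamini-Hochberg adjustment over all genes tested, and a gene was called at an adjusted p under 0.05. The test also rescales the library totals by a factor per library (TMM), which the CPM do not include. A change can therefore differ from the ratio of the CPM printed beside it.

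**Figure D1:**
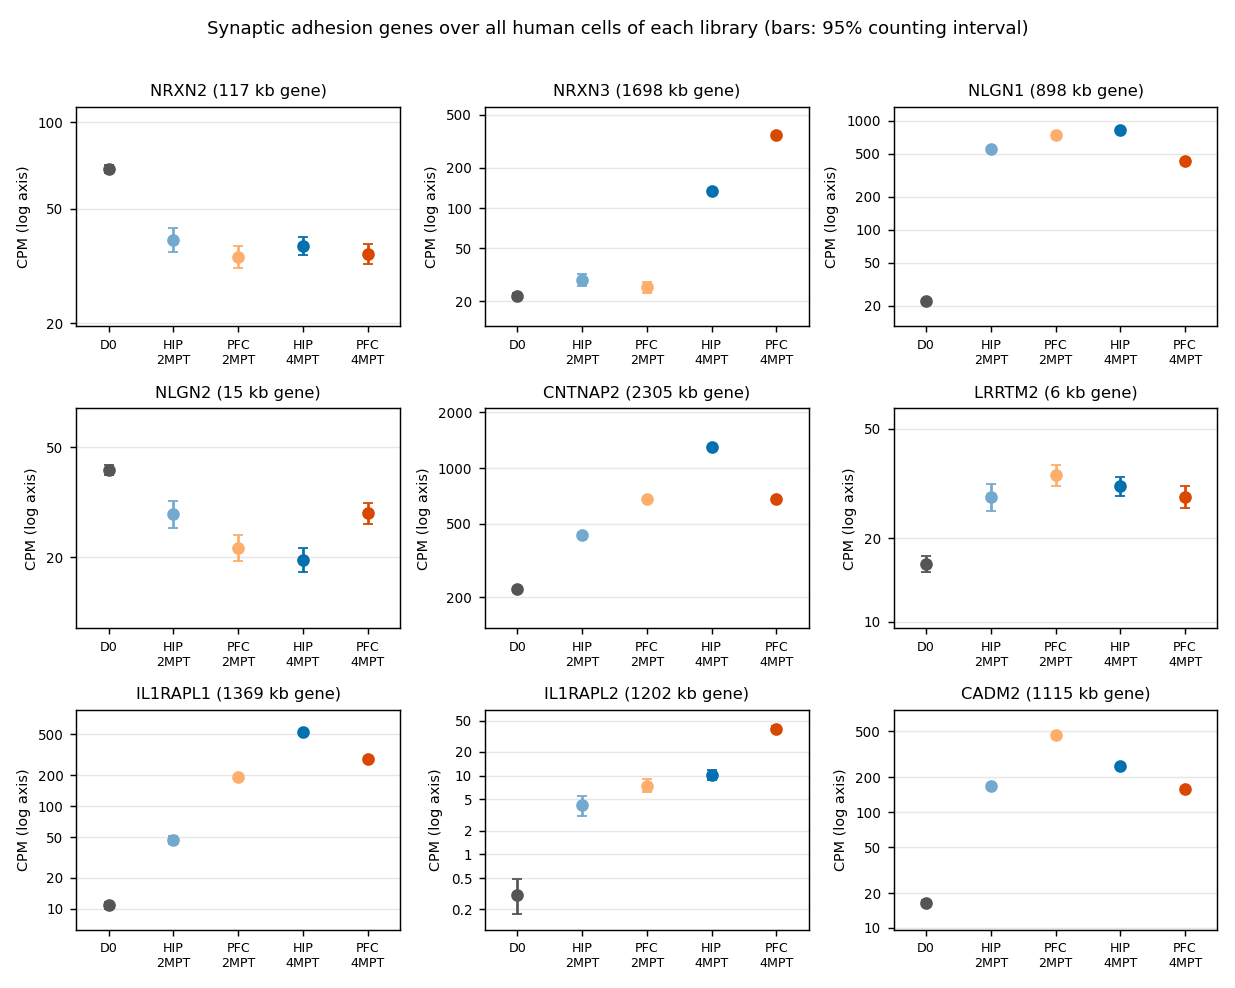
CPM of each of the 9 genes (log axis, 1 panel per gene, gene length in kb in the title) in the 5 libraries, with bars for the 95% counting interval. NLGN1 goes from 21.95 CPM in D0 to between 427 and 828 in the grafts, NRXN3 is high in both 4MPT libraries alone, and NRXN2 and NLGN2 are highest in D0.

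Both neurexins behaved differently after grafting. NRXN2 was at 68.7 CPM in D0, 39.0 and 37.1 in the HIP grafts of 2MPT and 4MPT, and 34.1 and 34.9 in the PFC grafts of those stages. Every graft was thus below D0, and most graft intervals overlapped one another. NRXN2 fell by 1.27 ± 0.26 on the log2 scale at 2MPT against D0 (edgeR, adjusted p = 0.00244) and by 1.23 ± 0.26 at 4MPT (adjusted p = 0.00269).

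NRXN3 was at 22.01 CPM in D0, 28.9 (HIP) and 25.4 (PFC) at 2MPT, and 134 (HIP) and 351 (PFC) at 4MPT. The 3 earlier libraries lay close together and both 4MPT libraries stood well above them, with no overlap of intervals. At 2MPT its difference from D0 was -0.05 ± 0.47 (adjusted p = 0.933), and -3.45 (adjusted p = 0.0047) with the gene length trend described below removed. At 4MPT it rose by 3.18 ± 0.55 against D0 (adjusted p = 0.000929), or by 2.33 without PFC_4MPT.

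CNTNAP2, the neurexin-related channel-clustering protein, was at 223 CPM in D0, 436 and 1299 in the HIP grafts of 2MPT and 4MPT, and 680 and 681 in the PFC grafts of those stages. All grafts were above D0, HIP_4MPT was highest, and both PFC libraries had nearly the same level. Its difference from D0 was 0.98 ± 0.42 at 2MPT (adjusted p = 0.0747, and 0.0107 without HIP_2MPT), and at 4MPT it rose by 1.84 ± 0.44 (adjusted p = 0.00554).

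Among the postsynaptic partners, NLGN1 had the clearest step between D0 and the grafts. Its level was 21.95 CPM in D0, 555 (HIP) and 738 (PFC) at 2MPT, and 828 (HIP) and 427 (PFC) at 4MPT. For thinned shares, here and below, cells of at least 1000 UMIs were thinned to 1000 and shallower cells were left out. So thinned, 1.82% of D0 cells had an NLGN1 UMI against 30.6% to 48.8% of graft cells. Unthinned shares, over all cells, were 17.6% and 44.1% to 75.7%, so the 2 kinds of share do not cover the same cells. In host mouse barcodes of the same libraries, 2.13% to 6.53% had an NLGN1 UMI by the reference that combines both species, at medians of 59 to 250 human UMIs, and 4.74% to 11.3% by the human reference alone, at medians of 554 to 1094.5. These barcodes were shallower than the thinned cells, so the shares are not matched in depth. NLGN1 rose by 4.53 ± 0.48 at 2MPT (adjusted p = 5.36e-05) and by 4.52 ± 0.48 at 4MPT (adjusted p = 5.02e-05), 23.04-fold and 23.02-fold.

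NLGN2 moved the other way. It was at 41.5 CPM in D0, 28.7 and 19.6 in the HIP grafts of 2MPT and 4MPT, and 21.7 and 28.9 in the PFC grafts of those stages. D0 was above every graft, and HIP_2MPT and PFC_4MPT overlapped, as did PFC_2MPT and HIP_4MPT. It fell by 1.08 ± 0.32 at 2MPT (adjusted p = 0.0174) and by 1.07 ± 0.32 at 4MPT (adjusted p = 0.0175), where the call was lost without HIP_4MPT (-0.77, adjusted p = 0.11).

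LRRTM2, a neurexin ligand of excitatory synapses, was at 16.2 CPM in D0, 28.2 (HIP) and 33.9 (PFC) at 2MPT, and 30.8 (HIP) and 28.3 (PFC) at 4MPT. The grafts were all above D0 and mostly overlapped one another. Its differences from D0 did not pass the test, at 0.59 ± 0.29 for 2MPT (adjusted p = 0.117) and 0.57 ± 0.29 for 4MPT (adjusted p = 0.123).

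Both interleukin-1 receptor-like genes were lowest in D0. IL1RAPL1 was at 10.9 CPM in D0, 46.6 and 527 in the HIP grafts of 2MPT and 4MPT, and 193 and 284 in the PFC grafts of those stages. No intervals overlapped, and the 2MPT libraries were further apart from each other than those of 4MPT. It rose by 3.12 ± 0.74 at 2MPT (adjusted p = 0.00601, 1.72 without PFC_2MPT and 3.82 without HIP_2MPT) and by 4.91 ± 0.82 at 4MPT (adjusted p = 0.000772).

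IL1RAPL2 was at 0.304 CPM in D0 (17 UMIs), 4.20 (HIP) and 7.47 (PFC) at 2MPT, and 10.2 (HIP) and 39.2 (PFC) at 4MPT (661 UMIs). PFC_4MPT stood apart from every other library. The rise against D0 was 3.90 ± 0.88 at 2MPT (adjusted p = 0.00452) and 6.05 ± 0.94 at 4MPT (adjusted p = 0.00049, 4.77 without PFC_4MPT and 6.75 without HIP_4MPT).

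CADM2 was at 16.5 CPM in D0, 167 and 252 in the HIP grafts of 2MPT and 4MPT, and 466 and 160 in the PFC grafts of those stages. PFC_2MPT was highest, and HIP_2MPT and PFC_4MPT overlapped. It rose by 3.92 ± 0.62 at 2MPT (adjusted p = 0.000541, 2.97 without PFC_2MPT) and by 3.34 ± 0.60 at 4MPT (adjusted p = 0.00112).

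Counted together, 6 of the 9 members were called at 2MPT against D0, 4 higher and 2 lower, where 48.3% of all 19074 genes tested were called, 27.2% higher and 21.1% lower. At 4MPT against D0, 8 were called, 6 higher and 2 lower, beside 50.1% of all genes, 28.7% higher and 21.4% lower. The median change of the members was 0.98 at 2MPT and 3.18 at 4MPT, against 0.07 and 0.08 over all genes tested. Both comparisons share the D0 library, so they are not independent of each other.

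Gene length moved with these changes. Over all genes tested, the median change at 4MPT against D0 was -0.15 for genes under 10 kb, -0.23 for 10 to 30 kb, -0.03 for 30 to 100 kb, 0.75 for 100 to 300 kb, 2.24 for 300 to 1000 kb and 3.97 for the 81 genes over 1000 kb. At 2MPT the longest genes had a median of 3.35. Between 4MPT and 2MPT, both counted by the same software, the medians of the 6 length classes stayed between -0.04 and 0.32. Long genes as a class were thus higher than in D0 at both graft stages, and the members have to be read beside that. The 6 members called higher at 4MPT were the 6 long ones, and the 3 shorter members were called lower or not at all.

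**Figure D2:**
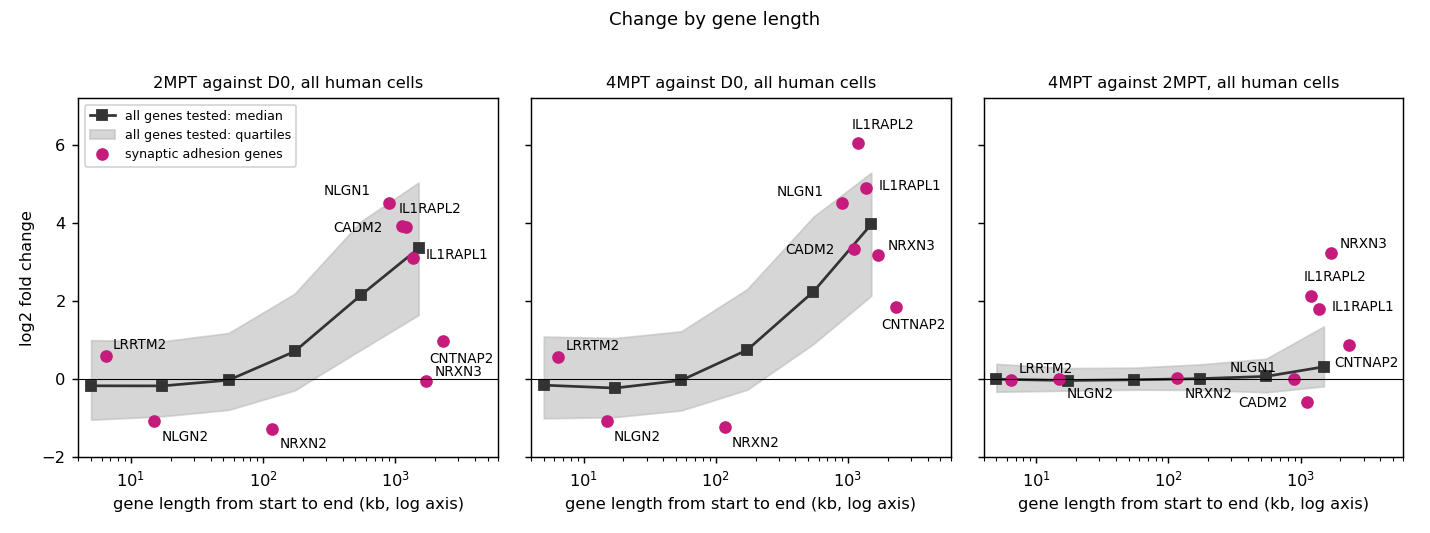
Log2 fold change (vertical axis) against gene length in kb (log axis) for 2MPT against D0, 4MPT against D0 and 4MPT against 2MPT, all human cells. Squares and line give the median of all genes tested in each length class, the grey band their quartiles, and the labelled magenta points the 9 members. Against D0 the median climbs to 3.97 in genes over 1000 kb, while between graft stages it stays under 0.33 and NRXN3, at 3.24, stands clear of it.

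Set beside genes of like length, the members took different places. At 4MPT against D0, NLGN1 changed by 2.28 more than the median of the 952 genes of 300 to 1000 kb, percentile 77.7 of that class. In the class of genes over 1000 kb the quartiles were 2.14 and 5.29. IL1RAPL2 lay 2.08 above the median of that class (percentile 84.0) and IL1RAPL1 0.94 above it (67.9). NRXN3 lay 0.79 below that median (37.0), CADM2 0.63 below (40.7) and CNTNAP2 2.13 below (23.5). IL1RAPL1, NRXN3 and CADM2 were thus between the quartiles of their class. NRXN2 was 1.98 below its class, at percentile 9.48, and NLGN2 0.84 below its own, at 22.1. LRRTM2 was 0.72 above its class of genes under 10 kb (percentile 67.4).

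With a smooth trend on gene length removed from the counts before testing, the picture against D0 changed for the long members. Values so obtained are relative to the trend at a gene's length, so a negative value need not mean a lower CPM. NLGN1 still rose, by 1.90 at 2MPT (adjusted p = 0.0015) and 1.68 at 4MPT (adjusted p = 0.00233). NRXN2 still fell, by 1.59 at 2MPT (adjusted p = 0.00115) and 1.55 at 4MPT (adjusted p = 0.00123). LRRTM2, not called before, was 0.91 higher at 2MPT (adjusted p = 0.0277) and 0.95 higher at 4MPT (adjusted p = 0.0236).

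For CNTNAP2 the sign turned, to -2.79 at 2MPT (adjusted p = 0.000311) and -2.23 at 4MPT (adjusted p = 0.000729). Its CPM were above D0 in every graft, so these values place CNTNAP2 below the trend of long genes. NRXN3 went from -0.05 to -3.45 at 2MPT (adjusted p = 0.0047), a call it had not had, and from 3.18 to -0.26 at 4MPT (adjusted p = 0.768). The rises of IL1RAPL1, IL1RAPL2 and CADM2 no longer passed the test at either stage, and that of IL1RAPL1 at 2MPT became -0.023. NLGN2 remained lower, at -0.76 and -0.70, without passing the test. Which of intron counting, annotation, dissociation, age and transplantation set the length trend was not tested.

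Cell classes were set by marker genes, with the 9 members and the wider lists of adhesion genes left out of the clustering. Each named cluster had 6 to 10 of its type's 7 to 10 markers above their level in the other cells, by any margin. Some glutamatergic-neuron-like clusters had only 1 marker more than 2-fold above. The astrocyte-like cluster with 327 (HIP) and 382 (PFC) cells at 2MPT had 6 astrocyte and 5 radial-glia markers more than 2-fold above. Neuron-like cells numbered 1963 in D0 and 4706 to 7296 in each graft, and progenitor-like cells 2214 in D0 and 534 to 762 in the grafts. Astrocyte-like cells numbered 61 in D0 and 350 to 646 in the grafts. In D0, 1075 of the neuron-like cells belonged to a cluster led by NTS and CALB2 that held at most 8 cells in any graft. Inhibitory-neuron-like cells numbered 95 in D0, 16 and 20 at 2MPT, 248 in HIP_4MPT and 1087 in PFC_4MPT. A cluster with OLIG1 and EGFR among its leading genes, in none of these classes, numbered 27 (HIP) and 56 (PFC) at 2MPT. At 4MPT it numbered 923 (HIP) and 637 (PFC), and its cells entered the sums over all human cells.

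In neuron-like cells too, NLGN1 rose and NRXN2 and NLGN2 fell against D0. NLGN1 was at 15.1 CPM in D0 and 404 to 874 in the grafts, and rose by 5.33 ± 0.58 at 2MPT (adjusted p = 2.71e-05) and 5.32 ± 0.58 at 4MPT (adjusted p = 2.55e-05). NRXN2 was at 118 CPM in D0 and 34.8 to 40.1 in the grafts, and fell by 1.75 ± 0.28 (adjusted p = 0.000407) and 1.83 ± 0.28 (adjusted p = 0.000256). NLGN2 went from 57.4 CPM in D0 to between 20.3 and 28.98, and fell by 1.31 ± 0.31 (adjusted p = 0.00463) and 1.38 ± 0.31 (adjusted p = 0.0031).

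IL1RAPL1, IL1RAPL2 and CADM2 rose in neuron-like cells at both stages, by 3.55 to 5.71, 4.16 to 6.78 and 2.54 to 3.60. CNTNAP2 passed only at 4MPT, at 1.956 ± 0.54 (adjusted p = 0.0111), and not without HIP_4MPT (1.23, adjusted p = 0.0585) or by DESeq2 (1.91, adjusted p = 0.0674). LRRTM2, at 26.9 CPM in D0 and 29.1 to 46.4 in the grafts, did not pass (0.51 ± 0.34 at 4MPT, adjusted p = 0.229). In all, 6 members were called at 2MPT beside 43.0% of genes, and 8 at 4MPT beside 46.3%. All these calls were kept without the NTS-CALB2 cluster.

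With the length trend removed in neuron-like cells, NLGN1 stayed higher at 2MPT (2.76, adjusted p = 0.000697) and 4MPT (2.54, adjusted p = 0.000828). NRXN2 stayed lower at -2.22 and -2.32 and NLGN2 at -1.18 and -1.19, called at both stages. IL1RAPL2 stayed called at 4MPT (3.96, adjusted p = 0.0407) but not at 2MPT (1.31, adjusted p = 0.497). IL1RAPL1, at 0.53 and 2.45 (adjusted p = 0.627 and 0.0536), and CADM2, at 0.79 and -0.46 (adjusted p = 0.305 and 0.53), were called at neither stage. Relative to the trend, CNTNAP2 was lower at both stages, at -2.79 (adjusted p = 0.000993) and -1.91 (adjusted p = 0.00473). NRXN3 was called below the trend at 2MPT (-4.09, adjusted p = 0.00281) and was at -0.19 at 4MPT (adjusted p = 0.842).

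**Figure D3:**
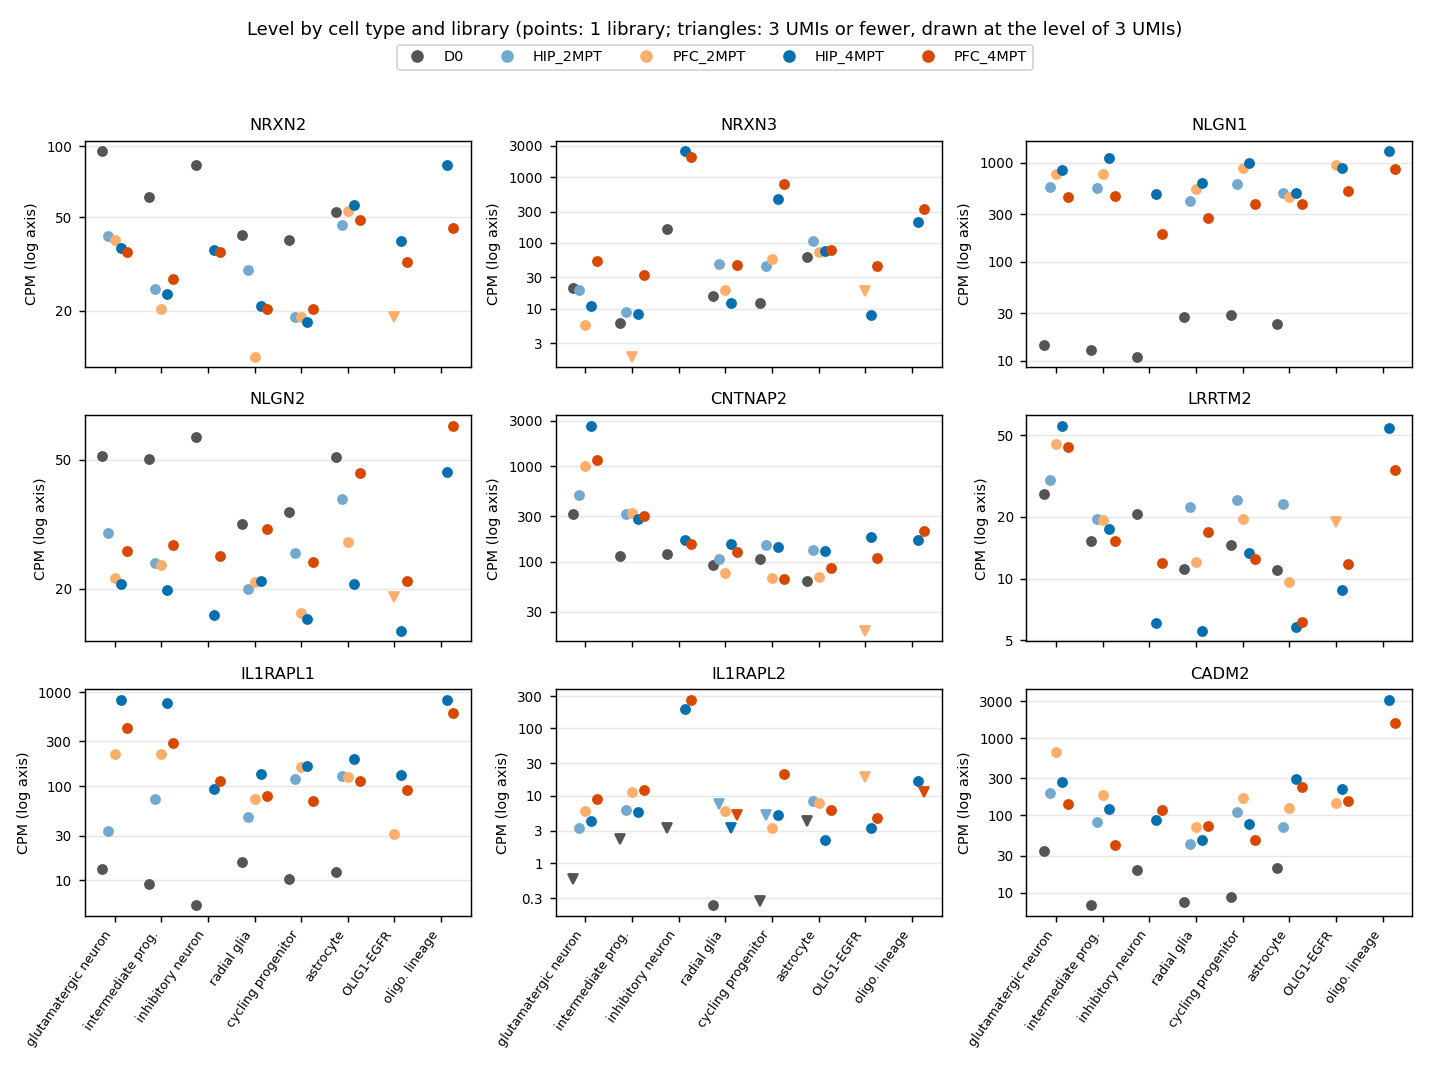
CPM (log axis) of each gene by cell type, with 1 point per library and triangles for values that rest on 3 UMIs or fewer, drawn at the level of 3 UMIs. NRXN3 and IL1RAPL2 peak in inhibitory-neuron-like cells of both 4MPT libraries, CADM2 in oligodendrocyte-lineage-like cells, and CNTNAP2 in glutamatergic-neuron-like cells.

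Comparing classes inside a library keeps the enzyme and the counting software the same, though not the depth per cell, with medians of 8273 UMIs in neuron-like against 11336 in progenitor-like cells of D0 and 1243 to 2512 against 1508 to 4628.5 in the grafts. CNTNAP2 was the most neuronal member. Its neuron-like level over its progenitor-like level was 3.75-fold in D0, 3.63-fold and 14.3-fold in the HIP grafts of 2MPT and 4MPT, and 12.6-fold and 10.7-fold in the PFC grafts. The ratio was alike in D0 and HIP_2MPT and larger in the other 3 grafts, with no overlap between the 2 sets of intervals. Over the 4 grafts, with the library as a block, CNTNAP2 was 3.20 ± 0.25 higher in neuron-like cells (adjusted p = 1.1e-06).

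NLGN1 showed no such contrast in the grafts. Its ratio was 0.532 in D0, 1.06 (HIP) and 1.07 (PFC) at 2MPT and 1.016 (HIP) and 1.15 (PFC) at 4MPT, so in D0 it was the progenitor-like cells that had more. The graft difference was 0.07 ± 0.09 (adjusted p = 0.59). NLGN2 likewise did not differ beyond its spread (0.13 ± 0.14, adjusted p = 0.486), with ratios of 1.00 to 1.24 in the grafts and 1.75 in D0.

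NRXN3 was the exception in direction. It was 2.29-fold higher in neuron-like than progenitor-like cells of D0, and 0.514-, 0.428-, 0.457- and 0.760-fold in HIP_2MPT, PFC_2MPT, HIP_4MPT and PFC_4MPT. Over the grafts it was lower in neuron-like cells by 0.95 ± 0.14 (adjusted p = 0.000225). With finer clusters, at a resolution of 1.6, the sign turned to 0.78 (adjusted p = 0.0258). There, a cluster of 226 cells led by GAD2, with 7 cycling-progenitor markers raised, was named inhibitory-neuron-like and so counted as neuron-like. NRXN3 was among its leading genes. The part of these cells in the turn was not tested.

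LRRTM2 was 1.32 ± 0.21 higher in neuron-like cells (adjusted p = 0.00031), CADM2 1.62 ± 0.17 (adjusted p = 1.5e-05), IL1RAPL2 1.45 ± 0.23 (adjusted p = 0.000337) and NRXN2 0.88 ± 0.14 (adjusted p = 0.000347). IL1RAPL1 was uneven, at 0.419-fold (HIP) and 1.86-fold (PFC) at 2MPT and 5.05-fold (HIP) and 4.85-fold (PFC) at 4MPT. Its difference of 1.18 ± 0.42 (adjusted p = 0.0377) was lost without PFC_2MPT (1.28), HIP_4MPT (0.72) or PFC_4MPT (0.78), and by DESeq2 (1.09). In total 7 members were called between these classes, 6 higher and 1 lower in neuron-like cells, beside 46.5% of all genes tested (23.9% higher, 22.6% lower). Gene length moved with this contrast too. Medians over all genes tested were -0.001 under 10 kb, 0.37 for 300 to 1000 kb and 0.73 over 1000 kb. Within that longest class, CNTNAP2 lay at percentile 93.8, CADM2 at 71.6, IL1RAPL2 at 67.9, IL1RAPL1 at 59.3 and NRXN3 at 9.88. The length trend was not removed here.

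**Figure D4:**
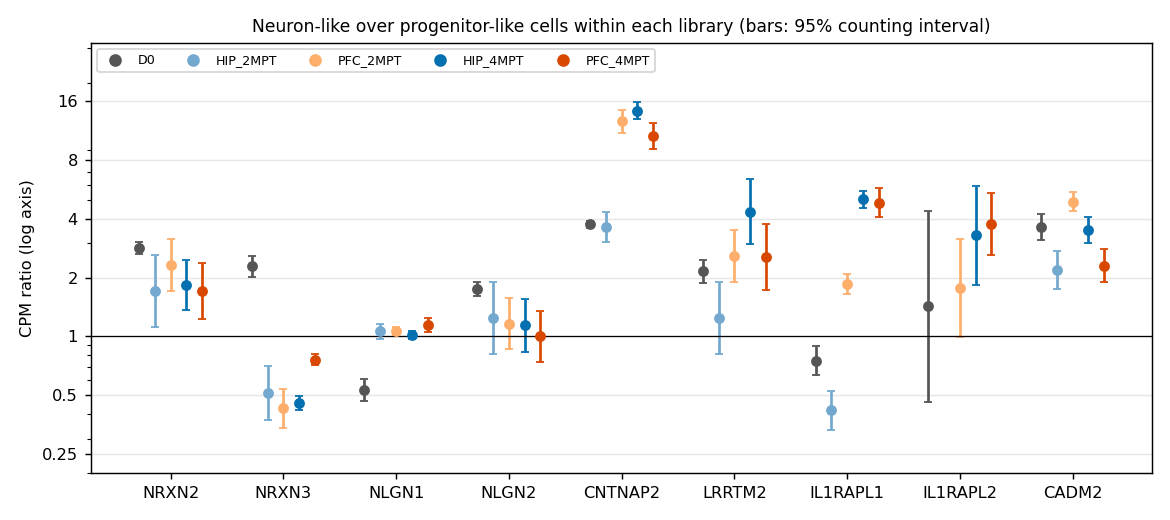
CPM in neuron-like cells divided by CPM in progenitor-like cells of the same library (log axis, line at 1), per gene and library, with 95% counting intervals. CNTNAP2 lies between 3.63 and 14.3 in all 5 libraries, NLGN1 close to 1 in the grafts, and NRXN3 above 1 in D0 alone.

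Against astrocyte-like cells of the same grafts, 4 members were higher in neuron-like cells and none lower, beside 43.4% of genes called (21.5% higher, 21.9% lower). CNTNAP2 was 3.45 ± 0.28 higher (adjusted p = 3.85e-07) and LRRTM2 2.29 ± 0.31 (adjusted p = 5.29e-05). IL1RAPL2 was 2.10 ± 0.50 higher (adjusted p = 0.00397), a call lost without PFC_4MPT (1.08) and by DESeq2 (1.45). Its astrocyte-like levels rest on few UMIs. NLGN1 was 0.61 ± 0.16 higher (adjusted p = 0.00756), lost without PFC_2MPT (0.50, adjusted p = 0.0587). NRXN2 was not distinguishable between these classes (-0.37 ± 0.16, adjusted p = 0.0868), with 46.1 to 56.5 CPM in graft astrocyte-like cells and 34.8 to 40.1 in neuron-like cells.

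Within neurons, NRXN3 separated inhibitory from glutamatergic cells. In inhibitory-neuron-like cells it was at 163 CPM in D0, 2459 in HIP_4MPT and 2005 in PFC_4MPT. In glutamatergic-neuron-like cells it was at 20.4 CPM in D0, 19.4 (HIP) and 5.67 (PFC) at 2MPT, and 11.1 (HIP) and 52.4 (PFC) at 4MPT. The ratio within a library was 8.01 in D0, 221 in HIP_4MPT and 38.3 in PFC_4MPT. Both 2MPT libraries held fewer than 50 inhibitory-neuron-like cells and were given no level.

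Thinned to 1000 UMIs, 65.1% of inhibitory-neuron-like cells in HIP_4MPT and 73.6% in PFC_4MPT had an NRXN3 UMI, against 1.10% and 3.095% of glutamatergic-neuron-like cells. The unthinned shares were 77.8% and 85.5% against 2.50% and 4.99%, at median depths of 2471 and 1670 UMIs against 2447 and 1747. In D0 the thinned share in inhibitory-neuron-like cells was 15.2%. The contrast was therefore present in all 3 libraries with enough such cells and was widest at 4MPT. For D0 it rests on the 95 cells so named, which leave out many of the 244 D0 cells in the SST-led cluster of the finer clustering.

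IL1RAPL2 followed the same cells. It was at 192 CPM in inhibitory-neuron-like cells of HIP_4MPT and 264 in PFC_4MPT, 44.9-fold and 29.8-fold the glutamatergic level of the same library. In D0, a single UMI was found in these cells. Glutamatergic-neuron-like cells stayed at or under 8.87 CPM in every library.

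CNTNAP2, CADM2 and, at 4MPT, LRRTM2, IL1RAPL1 and NLGN1 were lower in inhibitory-neuron-like than in glutamatergic-neuron-like cells. CNTNAP2 in glutamatergic-neuron-like cells was at 320 CPM in D0, 506 and 2672 in the HIP grafts of 2MPT and 4MPT, and 1014 and 1179 in the PFC grafts of those stages, and its inhibitory level was 0.374-, 0.0633- and 0.130-fold of that in D0, HIP_4MPT and PFC_4MPT. CADM2 had inhibitory over glutamatergic ratios of 0.574, 0.323 and 0.825 in those libraries. LRRTM2 had ratios of 0.799 in D0 (95% interval 0.494 to 1.29), 0.109 in HIP_4MPT, on 4 inhibitory UMIs, and 0.273 in PFC_4MPT. For IL1RAPL1 the ratios were 0.414 (0.167 to 1.03), 0.113 and 0.272, and for NLGN1 0.760 (0.393 to 1.47), 0.567 and 0.421, so in D0 these 3 intervals include 1. NRXN2 and NLGN2 had ratios whose intervals include 1.

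The highest CNTNAP2 and IL1RAPL1 levels came from 1 glutamatergic-neuron-like cluster led by KCNIP4. There CNTNAP2 was at 434 CPM in D0, 860 (HIP) and 1906 (PFC) at 2MPT, and 3947 (HIP) and 2112 (PFC) at 4MPT. IL1RAPL1 in this cluster was at 60.3 CPM (HIP) and 442 (PFC) at 2MPT, and at 1285 (HIP) and 799 (PFC) at 4MPT. For both genes HIP_4MPT was the highest library and HIP_2MPT the lowest graft. CADM2 instead was highest among glutamatergic clusters in one led by NKAIN2, at 666, 1392, 1036 and 656 CPM in HIP_2MPT, PFC_2MPT, HIP_4MPT and PFC_4MPT.

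Among glial cells, those of the oligodendrocyte lineage carried several members at high levels. CADM2 reached 3138 CPM in the 70 oligodendrocyte-lineage-like cells of HIP_4MPT and 1553 in the 105 of PFC_4MPT, against 271 and 141 in glutamatergic-neuron-like cells. Its thinned share of cells with a UMI was 75% and 64.1% there, against 15.01% and 10.03% in glutamatergic-neuron-like cells, and unthinned 88.6% and 83.8% against 24.3% and 15.7% at medians of 3216 and 2552 against 2447 and 1747 UMIs. NLGN1 was at 1302 and 859 CPM in these oligodendrocyte-lineage-like cells and IL1RAPL1 at 818 and 604. CADM2 in astrocyte-like cells was at 71.2 and 126 CPM at 2MPT and 296 and 233 at 4MPT in HIP and PFC, and rose by 1.43 ± 0.29 between the stages (adjusted p = 0.0197), the only member of 9 called there, beside 2.64% of genes.

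The grafts of 2MPT and 4MPT were dissociated with the same enzyme and counted with the same software and annotation. In all human cells NRXN3 alone was called, at 3.24 ± 0.42 (adjusted p = 0.00306), beside 2.40% of genes. Without PFC_4MPT it was 2.32 (adjusted p = 0.0486). The differences of IL1RAPL2, 2.14 ± 0.56, and of IL1RAPL1, 1.79 ± 0.53, did not pass (adjusted p = 0.0861 and 0.129). NRXN2, NLGN1, NLGN2 and LRRTM2 had differences within 0.04 of 0.

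In those comparisons single libraries mattered. IL1RAPL1 was called without PFC_2MPT (3.19), IL1RAPL2 without HIP_2MPT (1.78), PFC_2MPT (2.66) or HIP_4MPT (2.83), CNTNAP2 without PFC_2MPT (1.25 against 0.87), and CADM2, at -0.58 with all libraries, without HIP_2MPT (-1.15). In neuron-like cells 2 members were called between stages, beside 1.16% of genes. NRXN3 rose by 3.88 ± 0.47 (adjusted p = 0.00182) and by 2.84 without PFC_4MPT. IL1RAPL2 rose by 2.62 ± 0.55 (adjusted p = 0.0421), which was lost without PFC_4MPT (1.29, adjusted p = 0.284) and by DESeq2 (adjusted p = 0.136).

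The change between stages also differed between neuron-like and astrocyte-like cells for 4 members, in a test of the class-by-stage interaction that called 3.02% of genes, 1.53% higher and 1.49% lower. NRXN3, IL1RAPL1 and IL1RAPL2 changed more in neuron-like cells, by 3.74, 2.07 and 3.27, and CADM2 by 2.54 less. Their values in each library are given in the closing section.

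Inhibitory-neuron-like cells moved with both rises. Their number went from 16 and 20 at 2MPT to 248 and 1087 at 4MPT, and they held 56.5% of the NRXN3 UMIs in HIP_4MPT and 68.4% in PFC_4MPT, on 3.09% and 11.96% of all UMIs. For IL1RAPL2 their share was 58.0% and 80.6%. Within glutamatergic-neuron-like cells alone, the change between stages was 1.44 for NRXN3 (adjusted p = 0.326) and 0.56 for IL1RAPL2 (adjusted p = 0.705), and no member was called. The change of NRXN3 against D0 at 4MPT was 0.58 in those cells (adjusted p = 0.548).

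The remaining NRXN3 lay mostly in cycling-progenitor-like cells, with 28.1% of the UMIs in HIP_4MPT and 18.01% in PFC_4MPT. Among those, the cells with at least 3 UMIs of inhibitory-neuron marker genes, a limit chosen after seeing the values, made up 31.4% and 55.7% of the cells and held 93.3% and 94.2% of their NRXN3 UMIs. Their NRXN3 level was 1591 and 1303 CPM, against 42.9 and 103 in the other cycling cells. In PFC_4MPT, 33 glutamatergic-neuron-like cells with such marker UMIs held 33.3% of the NRXN3 UMIs of that type. Doublets of cell types were not sought with a caller, and their part in these values was not tested.

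**Figure D5:**
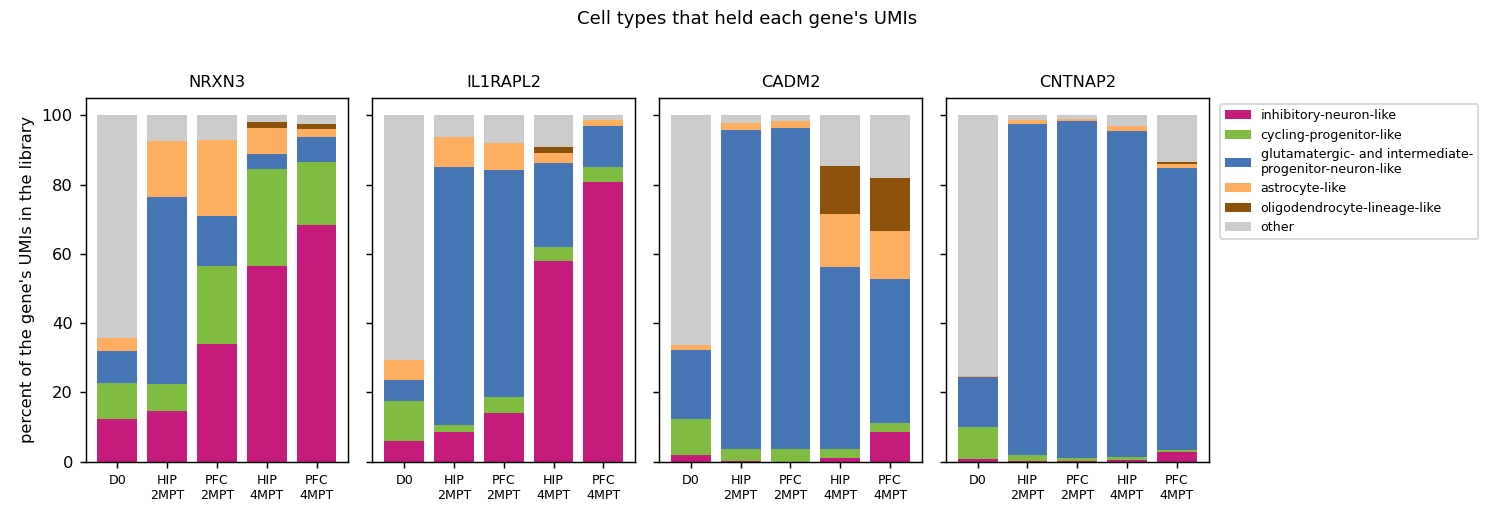
Percent of all UMIs of NRXN3, IL1RAPL2, CADM2 and CNTNAP2 found in each cell type, as stacked bars per library (grey: all other cells). Inhibitory-neuron-like cells go from 14.5% and 34.0% of the NRXN3 UMIs at 2MPT to 56.5% and 68.4% at 4MPT, and oligodendrocyte-lineage-like cells hold 13.9% and 15.3% of the CADM2 UMIs at 4MPT.

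Few differences between graft sites were called. Over all human cells none was called between PFC and HIP by edgeR, where 0.0827% of 18127 genes were called, 1 member was under an unadjusted p of 0.05 and DESeq2 called none. That member was IL1RAPL2, higher in PFC by 1.48 ± 0.39 (adjusted p = 0.239). In neuron-like cells IL1RAPL2 was called, 1.58 ± 0.36 higher in PFC (adjusted p = 0.0172, 0.151% of genes called), but not without the stage in the fit (1.85) nor in glutamatergic-neuron-like cells alone (1.01). In astrocyte-like cells no member was called beside 0.101% of genes, 1 (CNTNAP2, -0.72 ± 0.31) was under an unadjusted p of 0.05, and DESeq2 called none. These fits had 1 residual degree of freedom, so their p-values lean on a spread shared across genes.

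The wider lists of synaptic adhesion genes and their scaffolds held 107 genes. At 4MPT against D0, 46 of the 104 tested were higher and 24 lower in all cells, beside 28.7% and 21.4% of all genes. In neuron-like cells 33 of 103 were higher and 29 lower, with a median change of -0.07, beside 46.3% of all genes called. In all cells, SynCAM, contactin and immunoglobulin adhesion genes were higher in 10 and lower in 2 of 21, scaffolds in 11 and 5 of 22, secreted bridges in 8 and 4 of 14, and postsynaptic partners in 7 and 7 of 23. Presynaptic organizers were higher in 4 and lower in 3 of 11, and teneurins, latrophilins and FLRT genes in 6 and 3 of 13.

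DSCAM, an axon guidance and self-avoidance molecule of 836 kb, had one of the largest rises, from 1.79 CPM in D0 to 364, 386, 282 and 166 in HIP_2MPT, PFC_2MPT, HIP_4MPT and PFC_4MPT. DLGAP1, a postsynaptic density scaffold of 959 kb, went from 12.01 CPM to between 592 and 1187. Both belong to the genes of 300 to 1000 kb, whose median change at 4MPT against D0 was 2.24. Values of the listed genes are given without removal of the length trend. NXPH4, a secreted neurexin ligand of 9.66 kb, fell from 36.6 CPM in D0 to 17.2 and 14.3 at 2MPT and 2.70 and 4.21 at 4MPT.

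Between stages, 11 of 104 listed genes rose and 5 fell in all cells, where 2.40% of all genes were called. In neuron-like cells 5 rose and 5 fell of 103, beside 1.16% of all genes. C1QL2, a secreted C1q-like synapse organizer, rose by 4.39, LRRC4C (a netrin-G ligand) by 2.75 and LRRTM3 by 2.70 in all cells. TENM2, a teneurin, fell by 2.22 and TENM4 by 1.69. In astrocyte-like cells 8 of 71 rose and none fell, by edgeR, beside 2.64% of all genes called, C1QL2 (3.52), LRRTM3 (1.61) and SLITRK2 (1.55) the most. Between sites, only CLSTN2 (a calsyntenin) was called of 100 in all cells, beside 0.0827% of all genes, lower in PFC by 2.51. It was at 190 CPM in HIP_2MPT and 11.4 in PFC_2MPT, but at 17.1 in HIP_4MPT and 8.48 in PFC_4MPT. HIP_2MPT alone thus stood well above the other grafts.

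Between classes in the grafts, 57 of 96 listed genes were higher and 16 lower in neuron-like than progenitor-like cells, the scaffolds 18 and 2 of 22, beside 23.9% and 22.6% of all genes. Longer genes as a class were also higher in neuron-like cells there, and the listed genes were not set against genes of like length. CNTN5, DSCAM and TENM2 had the largest excess in neuron-like cells (3.21, 3.21 and 3.12), and MAGI1 was 2.45 lower and NRCAM 1.38 lower. Against astrocyte-like cells 40 of 98 were higher and 26 lower in neuron-like cells, beside 21.5% and 21.9% of all genes. NXPH4 led that contrast at 3.71.

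Across the 28 sums of a graft library and a cell type, the genes whose log2 CPM was most like a member's were read as a description. These sums share libraries and depth. CNTNAP2 was closest to LRRC7 (Pearson's r = 0.94), ANKS1B (0.93) and CUX2 (0.93). NRXN3 was closest to PDZRN3 (0.89), PLS3 (0.87) and ST8SIA5 (0.87). LRRTM2 was closest to PTPRO (0.86), CADM2 to RAB2A (0.85), NRXN2 to ARL6IP5 (0.85) and NLGN2 to COPS7A (0.82). Nearest to IL1RAPL1 was TAFA1 (0.79), to NLGN1 MBNL1 (0.77) and to IL1RAPL2 ENOX2 (0.74).

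Among the members themselves, CNTNAP2 ran with LRRTM2 (r = 0.71) and IL1RAPL1 (0.61), and NRXN2 with CADM2 (0.60) and NLGN2 (0.57). The lowest values were between NLGN1 and IL1RAPL2 (-0.41) and between NLGN1 and NRXN3 (-0.39).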

How the data were processed

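The authors deposited UMI counts per gene and barcode (10x Genomics 3′ v3), not normalized, counted against human GRCh38 (hg38). Graft reads were counted a second time on a combined reference of both species. Per the labels Cell Ranger 3.1 was used; headers of the deposited counts name 3.1.0 for D0 and 5.0.0 for the grafts. Whether introns were counted is not given in the sources used here.

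Human cells had over 500 UMIs, over 500 genes, a log10 genes to log10 UMIs ratio over 0.8, a mitochondrial share under 0.15 and, in grafts, a human share of UMIs over 0.8, giving 11192237 to 55892222 UMIs per library. No doublet caller was run. Cells were clustered with Seurat 5.3.0 and sctransform 0.4.2 (R 4.3.3, seed 1) without the members and listed genes. Types were named from marker lists over the cells of all libraries together. Levels by type were given where a library held 50 or more such cells. UMIs were summed per library and class and tested with edgeR 4.0.16 (TMM, filterByExpr, quasi-likelihood F test, Benjamini-Hochberg). The script was checked on simulated counts with a fixed spread shared by all genes, which the data need not have. Removal of the length trend was not part of that check. Alternatives were DESeq2 1.42.0, its size factors, no filter, other cell filters, finer clusters, each graft library left out, the dual reference and a removed gene length trend. Leaving out the MTRNR2L or NTS-CALB2 cluster and testing glutamatergic-neuron-like cells alone were added after seeing the data. All 9 members are named, and from the wider lists the called genes with the largest changes at a mean of 10 CPM or more, apart from what is not reported here. Members and lists were chosen with earlier results of these data known. Replicates are HIP and PFC libraries of a stage, each from pooled tissue, so p-values cover no spread beyond these libraries. The quasi-likelihood test also moderates the spread of each gene by that of all genes. With so few libraries, p-values lean on that shared spread.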

Additional observations from a re-analysis of the deposited data

Results flagged for a closer look

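The change from 2MPT to 4MPT differed between neuron-like and astrocyte-like cells for 4 of the 9 members, in a test of the class-by-stage interaction (edgeR, library as a block) that called 3.02% of the 17023 genes tested. That fit left few residual degrees of freedom, so its small p-values lean on a spread shared across genes. NRXN3 changed by 3.74 ± 0.34 more in neuron-like cells (log2 scale, adjusted p = 1.64e-15): it went from 23.5 and 17 to 142 and 423 CPM there in HIP and PFC, and from 109 and 74.2 to 75.7 and 79.4 in astrocyte-like cells. Leaving out PFC_4MPT gave 2.93 and HIP_4MPT 4.55 for NRXN3. Its neuron-like cells held 16 and 20 inhibitory-neuron-like cells at 2MPT and 248 and 1087 at 4MPT.

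IL1RAPL2, from 4.14 and 8.18 to 15 and 57.7 CPM in neuron-like cells, differed by 3.27 ± 0.67 (adjusted p = 0.000517). Astrocyte-like cells had 8.38 and 7.85 CPM of IL1RAPL2 at 2MPT and 2.17 and 6.16 at 4MPT. These astrocyte-like levels rest on few UMIs, which limits the IL1RAPL2 difference. Over all human cells, IL1RAPL2 had 47 UMIs in HIP_2MPT and 219 in HIP_4MPT. The call was lost without PFC_4MPT (2.92, adjusted p = 0.052), and the value was 3.99 without PFC_2MPT.

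IL1RAPL1 went from 37.9 and 221 to 781 and 351 CPM in neuron-like cells and from 130 and 126 to 197 and 113 in astrocyte-like cells, a difference of 2.07 ± 0.35 (adjusted p = 9.57e-06). For IL1RAPL1 this was lost without HIP_2MPT (0.98, adjusted p = 0.0692) and by DESeq2 (2.24, adjusted p = 0.46), and was 3.50 without PFC_2MPT.

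CADM2 differed the other way, by -2.54 ± 0.31 (adjusted p = 5.24e-10). Its neuron-like level went from 181 and 594 to 236 and 128 CPM, and its astrocyte-like level from 71.2 and 126 to 296 and 233. The astrocyte-like cells of 4MPT included 221 and 204 cells of a cluster that held 23 and 15 cells at 2MPT, where CADM2 was at 537 and 344 CPM. In the other astrocyte-like cluster it was at 66.1 and 127 CPM at 2MPT and 194 and 162 at 4MPT.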

How the results depend on the processing

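Counts of members called were within 1.5 times their reported value in most alternatives. With the gene length trend removed, 4 instead of 8 members were called at 4MPT against D0 in all cells and 5 instead of 8 in neuron-like cells, and the median change of genes over 1000 kb went from 3.97 to 0.62. Signs turned with that trend removed for CNTNAP2 (-2.79 and -2.23 in all cells, -2.79 and -1.91 in neuron-like cells, 2MPT and 4MPT against D0), IL1RAPL1 (-0.023 at 2MPT), NRXN3 (-0.26 and -0.19 at 4MPT) and CADM2 (-0.46 at 4MPT, neuron-like cells), and at clustering resolution 1.6 for NRXN3 between neuron-like and progenitor-like cells (0.78). Values with that trend removed are relative to it and are not changes in CPM. NRXN3 at 2MPT against D0 gained a call with that trend removed (-3.45 in all cells, -4.09 in neuron-like cells). The cause was not tested.

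Between stages, 1 member was called in all cells, 4 without the filter on low counts and 1 to 4 when leaving out each library. Taking the graft site as replicate block gave 3 in all cells and 3 against 2 in neuron-like cells. In neuron-like cells DESeq2 gave 1, its size factors 1, the dual reference 1, no filter 5, leaving out each library 1 to 4 and glutamatergic-neuron-like cells alone 0. Between sites in neuron-like cells, 1 member was called, 0 without the stage and 0 in glutamatergic-neuron-like cells. The HIP to PFC difference of each gene at 2MPT was also set against that at 4MPT. Over genes, their correlation was -0.30 in all cells (10097 genes) and in neuron-like cells (9776), and -0.12 in astrocyte-like cells (10552). Each stage gave a single pair of libraries. Leaving out a library was not run between sites, since no residual degree of freedom remained. Of 45 levels by library, 41 stayed within their interval at over 1000 UMIs per cell and 40 at a human share over 0.9. IL1RAPL2 rested on 17 UMIs in D0, which limits its fold change.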

Other observations

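CNTNAP2 was also present outside neurons in D0. Choroid-plexus-like cells numbered 625 in D0 and at most 16 in any graft. Those of D0 were at 319 CPM of CNTNAP2 (95% interval 307 to 332), beside 320 in glutamatergic-neuron-like cells of the same library. After thinning to 1000 UMIs, 27.02% and 24.3% of these cells had a CNTNAP2 UMI, and unthinned 72.5% and 58.8% at medians of 10793 and 5277 UMIs. Progenitor-like cells of D0 were at 98.0 CPM of CNTNAP2.

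In PFC_4MPT, a cluster of 710 cells led by MTRNR2L genes had 1889 CPM of CNTNAP2, above the 1179 of glutamatergic-neuron-like cells there. It held at most 18 cells in any other library. Leaving it out kept each call of a member in all human cells.

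NRXN2 in D0 was concentrated in the cluster led by NTS, SST and CALB2, which held 43.0% of its UMIs at 136 CPM on 21.7% of all UMIs. Its level was 94.98 CPM in glutamatergic-neuron-like cells of D0 and 35.5 to 41.7 in those of the grafts.

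Barcodes of host mouse cells also held UMIs counted as human, and how many depended on the reference. In 422 to 1102 such barcodes per graft, the median was 554 to 1094.5 UMIs by the human reference alone and 59 to 250 human UMIs by the reference that combines both species. By the combined reference NLGN1 was at 245 (HIP) and 300 (PFC) CPM of the human UMIs in these barcodes at 2MPT and at 622 and 160 at 4MPT, and CNTNAP2 at 214 and 267 and at 874 and 223. Each value was below the level of the gene in human cells of the same library. By the human reference alone the ranges were 58.6 to 120 CPM for NLGN1 and 25.1 to 137 for CNTNAP2. NRXN2 in PFC_4MPT had 105 UMIs in these barcodes by the human reference alone and 6 by the combined one.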
